A study of Mus musculus with 2 samples.

Results

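Oxygen sensing and the genes linked to low oxygen were followed in single cells of mouse dorsal skin. The skin came from a wildtype animal of the C57BL/6J strain and from an animal that lacks Eppk1 (Eppk1-/-), bred back to the same strain. Both mice were untreated, their ages are not given in the sources used here, and each genotype is represented by 1 mouse and 1 library. The number of punches per mouse is not stated. Eppk1 encodes epiplakin, a cytolinker of the plakin family found in epithelia. The genes are Egln3, Egln1, Ndufa4l2, Vegfa, Slc2a1, Bnip3, Ankrd37, Pdk1 and Car9, 9 of the 19046 nuclear genes in the count files. They were selected on measured values of these libraries: Egln3 and Ndufa4l2 were picked from the keratinocyte genes with low and high ratios of Eppk1-/- over wildtype, and the other 7 were set beside them as genes known to respond to hypoxia. The keratinocyte ratios of Egln3 and Ndufa4l2, also those within keratinocyte stages and clusters, are therefore a description and support nothing. With 1 library per genotype no difference could be tested, no p-value is given, and genotype, mouse and punch cannot be told apart.

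Cells sense oxygen through the EGLN prolyl hydroxylases, which use oxygen to mark the alpha subunits of hypoxia-inducible factors (HIF) for removal by the VHL ubiquitin ligase. When oxygen is short the marks are not set, HIF accumulates and its targets are transcribed. Among them are genes for glucose uptake, for keeping pyruvate from oxidation in the mitochondrion, for mitophagy, for vessel growth and for control of pH. The epidermis has no vessels of its own and is supplied by diffusion from the dermis, and HIF targets are known to be expressed in it at rest. Egln1 is the main oxygen sensor of most cells, while Egln3 is both an enzyme of the same family and a HIF target, so that it takes part in a feedback loop.

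In the assay, pairs of probes anneal to RNA in fixed cells, are joined, and are counted as unique molecular identifiers (UMIs). Both mice shared a droplet run, and 1211 barcodes of droplets recurred across the libraries. The wildtype library held 9179 cells and 77638793 UMIs and the Eppk1-/- library 8811 cells and 65118304 UMIs, of which 8875 and 8617 cells passed the filters. Each cell was assigned to the cell type whose marker genes it showed most completely, and keratinocytes were then assigned to a stage by their marker levels. Keratinocytes numbered 5478 and 4034 (wildtype and Eppk1-/-, in this order throughout), fibroblasts 1764 and 2737, macrophages 565 and 829, dendritic cells 163 and 183, T and NK cells 159 and 129, and mast cells 50 and 69. Gated keratinocytes showed a median of 83.3% of the keratinocyte markers and gated fibroblasts 100% of theirs. The stages were basal (1820 and 1468 cells), proliferating (218 and 207), spinous (1063 and 967), granular (250 and 160), upper follicle (561 and 355) and follicle stem cells with outer root sheath (897 and 455), and 669 and 422 keratinocytes stayed without a stage. As a check of the labels, basal cells had an Eppk1 level of 1172 CPM in wildtype against 60.9 CPM in Eppk1-/-, and granular cells 6437 against 3720.5 CPM. In fibroblasts it was 86.0 and 26.4 CPM. Since counts are summed over the probes of a gene, the UMIs left in the Eppk1-/- library cannot be placed on the transcript.

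Levels are given as UMIs per 1000000 UMIs of the class (CPM) with an exact 95% Poisson interval. Ratios are log2 of Eppk1-/- over wildtype with an exact 95% interval, so that a value above 0 means a higher level in Eppk1-/-. All intervals cover counting error only, and not the spread between mice. Because probes of different genes differ in number and efficiency, a level is compared between classes of cells or libraries and never between genes.

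In the GENCODE M21 annotation of GRCm38 (mm10), Egln3 lies on the minus strand of chromosome 12, from 54178981 to 54203860, and Egln1 on the minus strand of chromosome 8, from 124908587 to 124949324. Ndufa4l2 is a short gene on the plus strand of chromosome 10, from 127514967 to 127517154. Ankrd37 is on the minus strand of chromosome 8, from 45996902 to 46005707. Vegfa is on the minus strand of chromosome 17, from 46016993 to 46032369, and Bnip3 on the minus strand of chromosome 7, from 138890836 to 138909519. Slc2a1 is on the plus strand of chromosome 4, from 119108711 to 119137983, and Car9 on the same strand and chromosome, from 43506966 to 43513729. Pdk1 is on the plus strand of chromosome 2, from 71873224 to 71903858. These are whole gene bodies, introns included.

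HIF binds a core element that reads ACGTG or GCGTG, and the promoters of these genes were searched for these letters on both strands, where they read CACGT or CACGC on the printed strand. RefSeq promoters of 300 bases (250 before to 50 after the start of the gene, GRCm38.p6) were matched for 8 of the 9 genes, all but Ndufa4l2. ACGTG occurred in 7 of these 8 genes, Pdk1 being the exception, and one of the letter strings occurred in all 8, in at least 1 of their promoters. Vegfa had its matches only in the promoter at chr17:46025114-46025413, inside the gene body, and none in that at chr17:46032328-46032627. Counted by promoter, 7 of the 10 promoters of these genes held ACGTG. Over all 32851 promoters of this length, 19.6% held ACGTG and 43.8% held either string, so that a match to either is common by itself. The difference between these shares was not tested. The promoters of both oxygen sensors are printed, and that of Ankrd37, which held more matches than either in the same length. The Bnip3 promoter, not printed, held the most, with 2 of ACGTG and 3 of GCGTG. Match counts were not compared with the ratios. Matches are in capitals. They lie at chr12:54203825-54204124 for Egln3, chr8:124949205-124949504 for Egln1 and chr8:45999801-46000100 for Ankrd37, all on the minus strand and printed 5′ to 3′.
Egln3: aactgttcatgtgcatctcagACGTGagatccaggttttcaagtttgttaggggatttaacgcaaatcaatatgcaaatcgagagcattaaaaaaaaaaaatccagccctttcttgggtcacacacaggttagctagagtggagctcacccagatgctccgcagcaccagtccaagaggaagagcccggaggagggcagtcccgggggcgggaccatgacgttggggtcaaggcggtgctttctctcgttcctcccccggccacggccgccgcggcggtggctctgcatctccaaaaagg
Egln1: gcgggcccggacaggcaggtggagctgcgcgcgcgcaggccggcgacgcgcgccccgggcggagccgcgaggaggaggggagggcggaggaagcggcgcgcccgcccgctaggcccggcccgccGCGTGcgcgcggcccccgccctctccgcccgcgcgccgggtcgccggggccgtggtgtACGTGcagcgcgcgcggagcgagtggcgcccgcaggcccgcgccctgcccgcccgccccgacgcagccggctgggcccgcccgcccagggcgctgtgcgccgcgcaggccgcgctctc
Ankrd37: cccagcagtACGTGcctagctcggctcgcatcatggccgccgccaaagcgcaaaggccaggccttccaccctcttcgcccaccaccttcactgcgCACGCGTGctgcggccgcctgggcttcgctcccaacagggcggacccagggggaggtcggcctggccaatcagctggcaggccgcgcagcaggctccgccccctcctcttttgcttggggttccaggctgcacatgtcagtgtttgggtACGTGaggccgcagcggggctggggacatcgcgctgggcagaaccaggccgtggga
The Egln3 window held 1 match, of ACGTG. The Egln1 window held 1 of each string, and the Ankrd37 window held 2 of each, counting a pair that overlaps. The RefSeq start of Ankrd37 lies inside the gene body given above. A match describes letters only and says nothing of binding in these cells.

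In keratinocytes as a whole the 9 genes did not share a direction: 3 had a ratio above 0 and 6 below. Of all genes with at least 50 UMIs in both libraries together, 44.3% were above 0. Egln3 was the lowest of the genes with at least 50 UMIs, at 225 CPM in wildtype (interval 221 to 230.5) and 147 CPM in Eppk1-/- (interval 142 to 152), a ratio of -0.62 (interval -0.68 to -0.56). Ndufa4l2 was the highest, at 119.6 and 172 CPM (intervals 116 to 123 and 167 to 177), a ratio of 0.52 (interval 0.46 to 0.59). With the stages of both libraries weighted by their wildtype shares this ratio was 0.36. Among genes with at least 50 UMIs in both libraries together, 5.49% of 11707 were lower by 0.5 or more and 2.42% were higher by as much. Egln3 and Ndufa4l2 were the only members with this minimum past 0.5, and since their keratinocyte ratio chose them, nothing is read from this.

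The remaining genes were closer to 0 in keratinocytes. Egln1 stood at 129 and 111 CPM (ratio -0.21, interval -0.28 to -0.14). Slc2a1, which encodes the glucose transporter GLUT1, had 504 and 457 CPM (ratio -0.14, interval -0.18 to -0.11). Vegfa, the growth factor that draws vessels toward the epidermis, had 145 and 151 CPM, and its ratio of 0.06 had an interval that held 0 (-0.0025 to 0.12). Pdk1, a kinase that keeps pyruvate from oxidation in the mitochondrion, had 30.8 and 28.7 CPM (ratio -0.10, interval -0.24 to 0.04). The other 3 rested on few UMIs. Bnip3, a mitophagy receptor, had 195 and 98 UMIs, or 5.47 and 4.09 CPM (ratio -0.42, interval -0.79 to -0.06). Ankrd37, an ankyrin-repeat protein gene, had 229 and 174 UMIs (ratio 0.18, interval -0.12 to 0.47). Car9, the carbonic anhydrase at the cell surface, had 30 and 13 UMIs (ratio -0.60, interval -1.70 to 0.35).

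**Figure D1:**
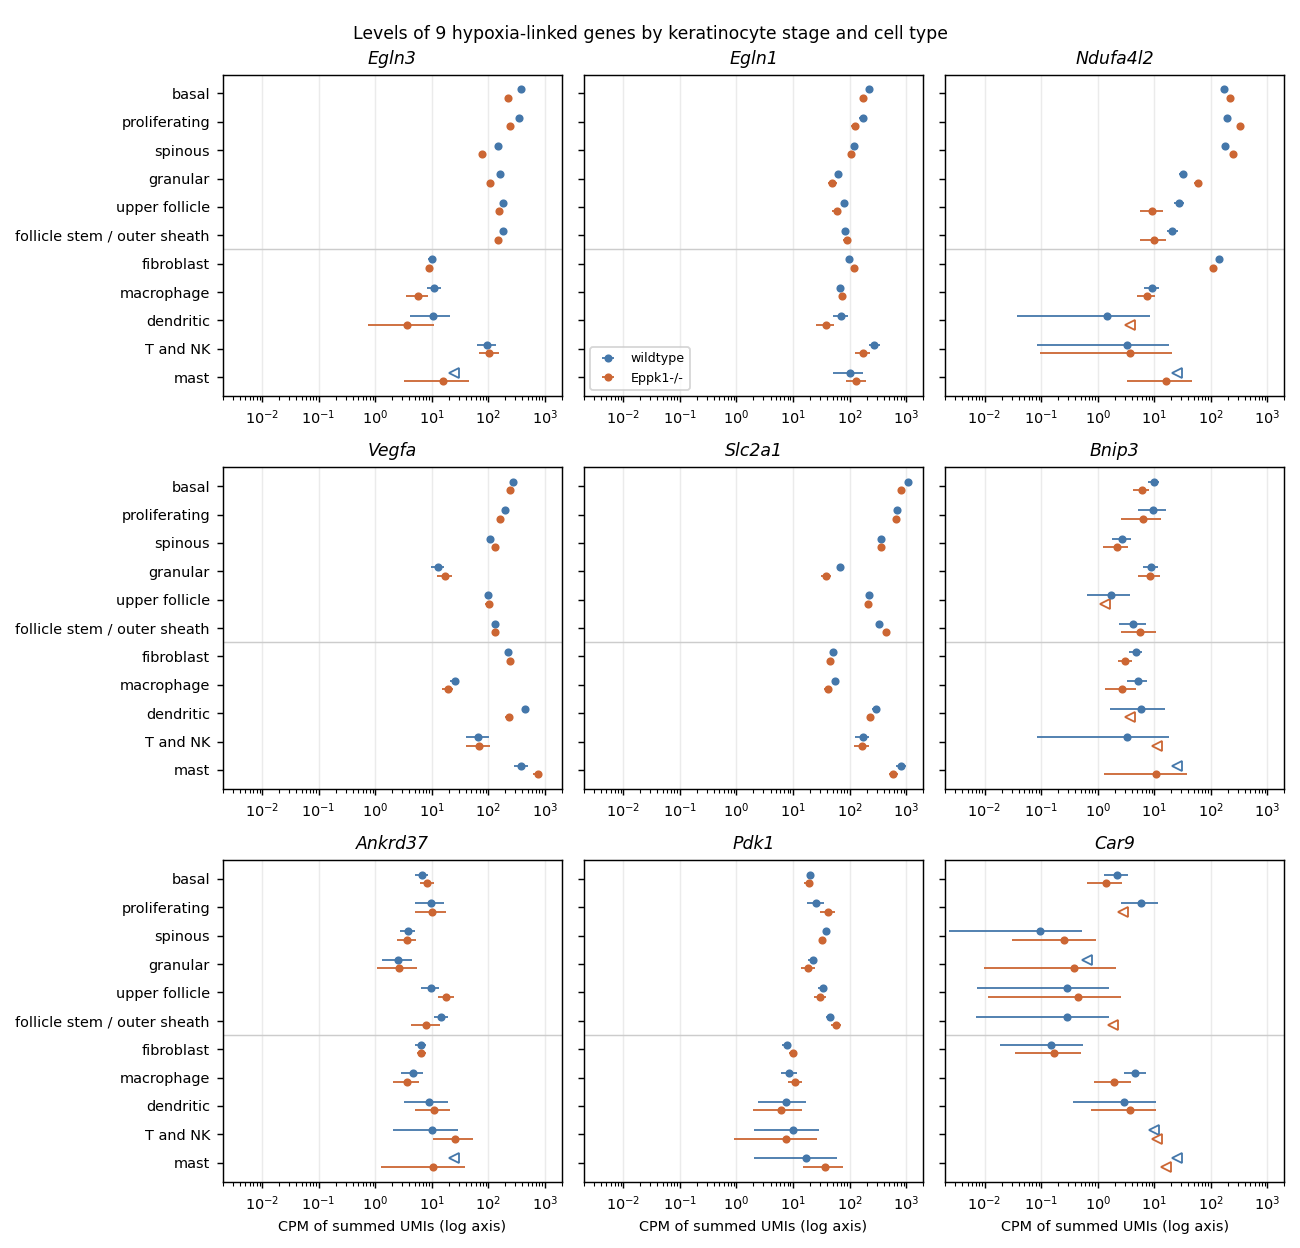
CPM (log axis) of the 9 genes in 6 keratinocyte stages (above the line) and 5 other cell types (below it), for the wildtype (blue) and Eppk1-/- (orange) library. Bars are exact 95% Poisson intervals, and an open arrow marks a count of 0, drawn at the level of 3 UMIs. Egln3 is highest in basal and proliferating keratinocytes, and the wildtype point lies above the Eppk1-/- point in all 6 stages.

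By stage, Egln3 was lower in Eppk1-/- in all 6 stages. The stages are parts of the same keratinocytes whose ratio chose Egln3, so their shared direction is a description and supports nothing. In basal cells it stood at 381 CPM in wildtype (interval 368 to 394) and 225 CPM in Eppk1-/- (interval 213 to 237), a ratio of -0.76 (interval -0.85 to -0.67). In proliferating cells the levels were 348 and 242 CPM (ratio -0.53, interval -0.75 to -0.31). Spinous cells had the lowest ratio, with 146 and 77.0 CPM (-0.92, interval -1.06 to -0.79). Granular cells had 162 and 107 CPM (-0.60, interval -0.80 to -0.40). The ratio was nearer to 0 in the follicle, with 180.4 and 155 CPM in the upper follicle (-0.22, interval -0.41 to -0.02) and 180.03 and 147 CPM in follicle stem cells and outer sheath (-0.29, interval -0.52 to -0.08). All 6 intervals lay below 0, although they do not contain the spread between mice. After thinning of each cell to 2000 UMIs the ratio turned to 0.17 in the upper follicle, and it was -0.19 in proliferating cells, -0.61 in follicle stem cells and outer sheath and -1.07 in granular cells.

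The order of the wildtype Egln3 levels was basal, proliferating, upper follicle, follicle stem and outer sheath, granular and spinous. Neighbours in this order overlapped in their intervals, except for the step from proliferating cells to the upper follicle. In Eppk1-/- the order was proliferating, basal, upper follicle, follicle stem and outer sheath, granular and spinous, and granular cells no longer overlapped with their neighbours (94.7 to 120.1 CPM, against 129 to 167 CPM in follicle stem cells and outer sheath and 70.9 to 83.4 CPM in spinous cells). Outside keratinocytes Egln3 was low in fibroblasts (10.1 and 9.11 CPM), macrophages (10.96 and 5.62 CPM) and dendritic cells (10.4 and 3.68 CPM). T and NK cells had 28 UMIs in each library, or 93.3 and 104.8 CPM (ratio 0.17, interval -0.64 to 0.98).

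The share of cells with an Egln3 UMI followed the levels. With each cell thinned to 2000 UMIs and shallower cells left out (162 and 173 basal cells), an Egln3 UMI was found in 34.8% of wildtype basal cells (interval 32.5 to 37.1) and 24.9% of Eppk1-/- basal cells (interval 22.6 to 27.4). Unthinned, these shares stood at 46.5% and 33.7%. In spinous cells the thinned shares were 19.6% and 13.0%, and in granular cells 21.03% and 8.82%. In the upper follicle they were 22.7% (interval 19.1 to 26.6) and 24.8% (interval 20.2 to 29.9), so that the lower summed level there had no counterpart in the share of cells. Fibroblasts, taken as a type low in Egln3, gave 1.98% and 1.46%, with median depths of 6810 and 6183 UMIs against 4345 and 4129 in basal cells. The share of keratinocytes with an Egln3 UMI was above that of fibroblasts in each stage given.

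Granular cells were not uniform in Egln3. Clusters formed from both libraries, with the 9 genes kept out of the clustering, included 1 of 51 and 37 cells led by Lce genes, which encode cornified envelope proteins of the last living layer. This cluster had the highest wildtype Egln3 level of the keratinocyte clusters, 416 CPM, and 467 CPM in Eppk1-/- (ratio 0.17, interval -0.05 to 0.38). Egln1 was down to 4 and 2 UMIs and Slc2a1 to 5 and 7 UMIs in the same cells. Ndufa4l2, Vegfa and Pdk1 were also lower there than in granular cells outside the cluster. Bnip3 was higher, at 29.2 and 27.6 CPM in the cluster against 6.42 and 5.51 CPM in granular cells outside it. Of the gated granular cells, 17 and 13 were in this cluster, and without them the granular levels of Egln3 were 144 and 78.5 CPM and the ratio -0.88. Of the other 8 keratinocyte clusters, 7 had a lower Egln3 level in Eppk1-/-, with ratios from -0.98 (cluster led by Krt24, Ccn2 and Angptl7) to -0.16 (cluster led by Defb6, Cst6 and Tchh). The exception, led by Krt75 and Wfdc3, had only 12 Eppk1-/- cells and a ratio of 1.10 (interval -0.11 to 2.07).

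**Figure D2:**
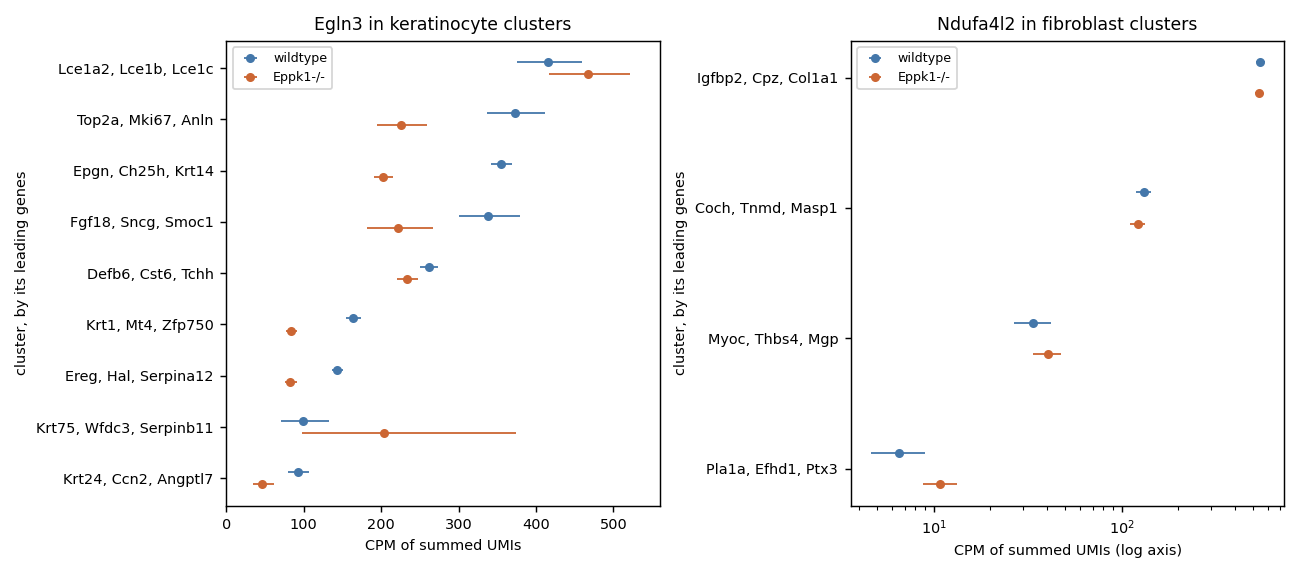
Levels (CPM) with exact 95% Poisson intervals in clusters of both libraries, named by their 3 leading genes, in the wildtype (blue) and Eppk1-/- (orange) library. Left, Egln3 in keratinocyte clusters: the Lce cluster is highest at 416 and 467 CPM. Right, Ndufa4l2 in fibroblast clusters (log axis): the levels span from 6.52 CPM to 548 CPM in wildtype, while the ratios within clusters range from -0.11 to 0.72.

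Egln1 was lower in 5 of 6 stages, with intervals below 0 in those 5. Its levels were 218 and 175 CPM in basal cells (ratio -0.32, interval -0.42 to -0.21), and its ratios were -0.46 in proliferating, -0.18 in spinous, -0.33 in granular and -0.44 in upper follicle cells. In follicle stem cells and outer sheath it had 82.2 and 90.7 CPM, and the interval of the ratio held 0 (0.14, interval -0.15 to 0.43). In fibroblasts Egln1 was higher in Eppk1-/-, at 98.2 and 117.6 CPM (ratio 0.26, interval 0.16 to 0.36). Both sensors were therefore lower in the same 5 stages. The Egln3 ratio was further from 0 in 4 of them, the upper follicle being the exception, and this difference between genes was not tested.

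Ndufa4l2 encodes a mitochondrial protein that replaces a subunit of the respiratory chain in low oxygen and damps respiration. Its ratio was above 0 in basal, proliferating, spinous and granular cells and below 0 in both follicle stages. The proliferating stage was set by cell cycle markers alone and is not tied to a place in the skin. Ndufa4l2 was higher in Eppk1-/- in basal cells (173 and 215 CPM, ratio 0.32, interval 0.21 to 0.42) and in proliferating cells (192 and 323 CPM, ratio 0.75, interval 0.52 to 0.99). Spinous cells had 179 and 247 CPM (0.47, interval 0.38 to 0.56), and granular cells had 32.2 and 58.8 CPM (0.87, interval 0.53 to 1.201). In the upper follicle the levels were 27.6 and 9.10 CPM, from 96 and 20 UMIs (ratio -1.57, interval -2.38 to -0.90). This ratio was -0.68 with a stricter gate margin and -2.37 as a mean over cells. In follicle stem cells and outer sheath they were 20.98 and 9.87 CPM, from 74 and 16 UMIs (ratio -1.05, interval -1.97 to -0.29). The difference between these stages was not tested.

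Both follicle levels of Ndufa4l2 in Eppk1-/- were near those of macrophages (9.07 and 7.32 CPM), a type in which few cells had a UMI. After thinning, 3.52% and 1.84% of upper follicle cells and 2.52% and 0.84% of follicle stem and outer sheath cells had an Ndufa4l2 UMI, against 0.81% and 0.28% of macrophages, whose median depths were 7399 and 4838 UMIs. The interval of the last follicle share (0.17 to 2.42) overlapped that of Eppk1-/- macrophages (0.03 to 1.01), and it is read as background. In basal cells the thinned shares were 25.8% (interval 23.7 to 27.9) and 29.6% (interval 27.1 to 32.1), and in spinous cells 26.3% and 30.4%. Without thinning the basal shares were 41.3% and 43.3%.

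Fibroblasts had Ndufa4l2 at 140.2 and 107 CPM (ratio -0.39, interval -0.48 to -0.29), opposite in sign to basal, proliferating, spinous and granular cells. The gene was unevenly spread over 4 fibroblast clusters. In the cluster led by Igfbp2, Cpz and Col1a1 it stood at 548 and 538 CPM (ratio -0.03, interval -0.13 to 0.08), and in the cluster led by Coch and Tnmd at 131 and 121 CPM (ratio -0.11, interval -0.30 to 0.08). The cluster led by Myoc and Thbs4 had 33.7 and 40.4 CPM (0.26, interval -0.15 to 0.67), and the cluster led by Pla1a and Efhd1 had 6.52 and 10.9 CPM (0.72, interval 0.18 to 1.32). The Igfbp2 cluster held 21.6% of wildtype and 14.4% of Eppk1-/- gated fibroblasts, and the Pla1a cluster 30.9% and 41.7%. With the clusters of both libraries weighted by their wildtype shares the ratio was -0.04, an alternative chosen after the values were seen. Egln3 was lower in all 4 clusters, with ratios from -1.18 in the Coch cluster (24.6 and 10.8 CPM) to -0.27 in the Igfbp2 cluster, although gated fibroblasts had -0.15. The clusters also hold cells that the gate did not call fibroblasts, and their part in these levels was not tested.

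**Figure D3:**
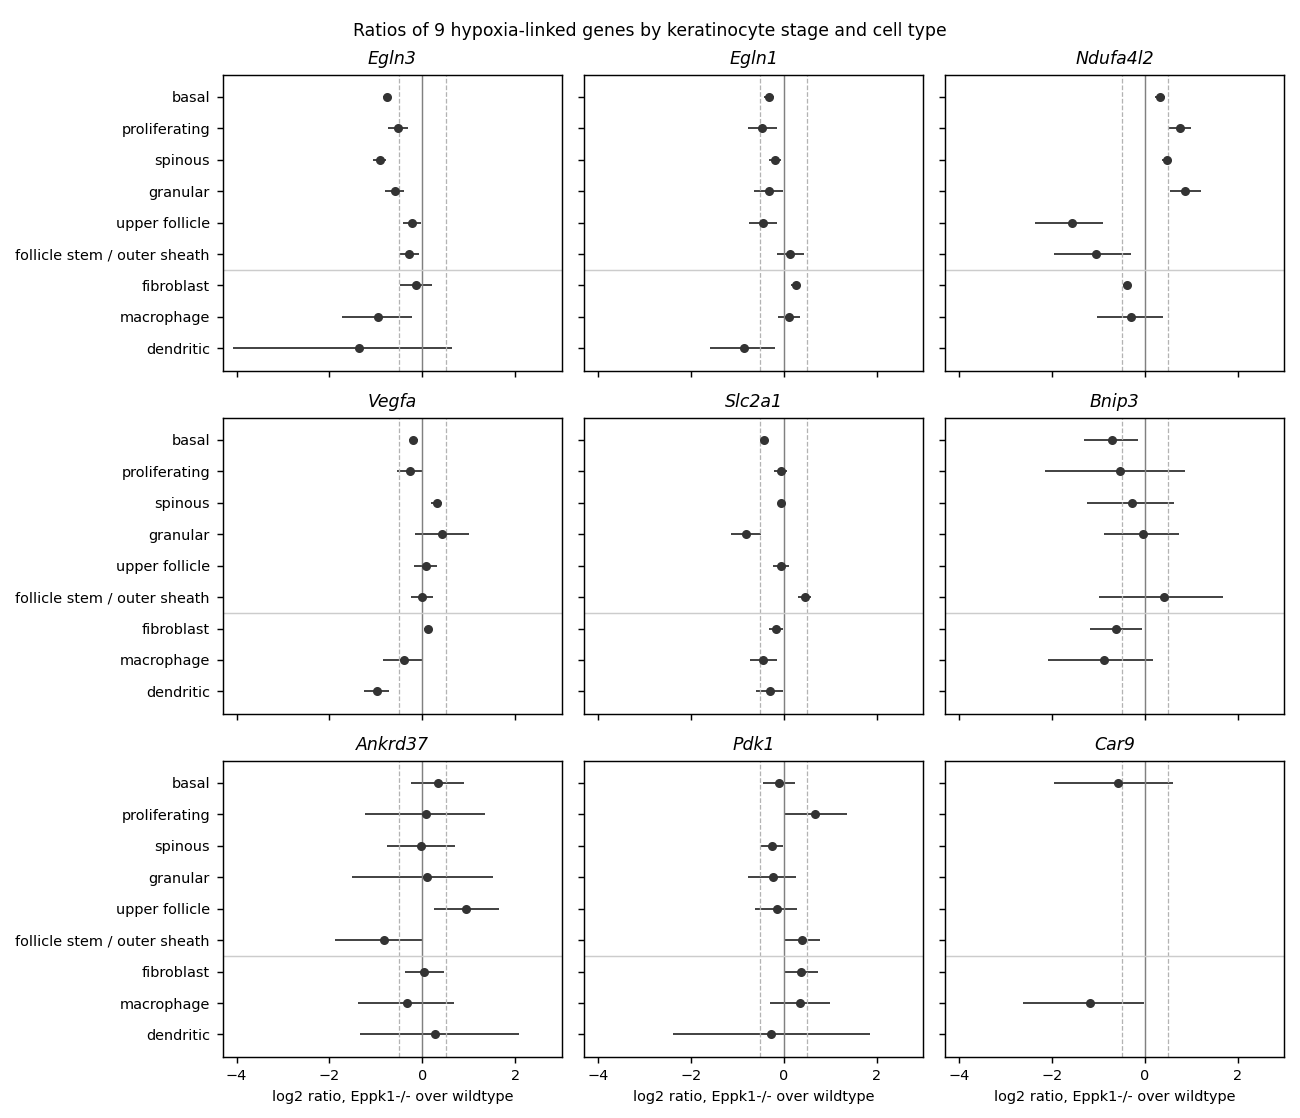
Log2 ratio of Eppk1-/- over wildtype for the 9 genes in 6 keratinocyte stages (above the line), fibroblasts, macrophages and dendritic cells, with exact 95% intervals of counting error. Solid lines mark 0 and dashed lines 0.5 in either direction; classes with 3 or fewer UMIs in both libraries, or 0 UMIs in 1 of them, have no point. Egln3 lies left of 0 in all stages, while Ndufa4l2 is right of 0 in 4 stages and left of it in the 2 follicle stages.

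Glucose uptake and pyruvate genes varied by stage. Slc2a1 was highest in basal cells, where it had 1086 and 814 CPM (ratio -0.41, interval -0.46 to -0.37). It was also lower in granular cells, at 67.4 and 38.5 CPM (-0.80, interval -1.14 to -0.48). In follicle stem cells and outer sheath it was higher, at 328 and 448 CPM (0.45, interval 0.31 to 0.59), and in the other 3 stages the interval held 0. Pdk1 was higher in proliferating cells (25.9 and 41.3 CPM from 35 and 45 UMIs, ratio 0.67, interval 0.01 to 1.36) and in follicle stem cells and outer sheath (44.5 and 58.6 CPM, ratio 0.40, interval 0.01 to 0.77). It was lower in spinous cells (38.3 and 32.2 CPM, ratio -0.25, interval -0.48 to -0.02).

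Vegfa differed in sign between stages. It was lower in basal cells (272 and 238 CPM, ratio -0.20, interval -0.29 to -0.10) and higher in spinous cells (107 and 132 CPM, ratio 0.30, interval 0.18 to 0.43). In proliferating, granular and both follicle stages the interval of its ratio held 0. In fibroblasts it had 221 and 239 CPM (0.11, interval 0.04 to 0.18). The levels were furthest apart in immune cells: 454 and 229.7 CPM in dendritic cells (ratio -0.98, interval -1.25 to -0.72) and 384 and 747 CPM in mast cells (0.95, interval 0.47 to 1.47). The mast cell values rest on 46 and 141 UMIs from 50 and 69 cells. In the dendritic cluster led by Cd207 and Mfge8 (147 and 114 cells) Vegfa stood at 483 and 412 CPM, and the ratio was -0.23 (interval -0.45 to -0.01). Early genes of tissue dissociation were lower in both of these types. Their median ratio was -0.54 in dendritic cells (11 of 12 below 0, where 39.5% of all genes were above 0). In mast cells it was -0.60 (12 of 12 below 0, where 46.9% of all genes were above 0). The part of the early genes in the Vegfa values was not tested.

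The scarce genes Bnip3, Ankrd37 and Car9 gave wide intervals. Bnip3 had 82 and 38 UMIs in basal cells (9.85 and 5.95 CPM, ratio -0.72, interval -1.32 to -0.15) and its interval held 0 in the other 4 stages with a ratio. In the upper follicle it had 6 UMIs in wildtype and 0 in Eppk1-/-, where a count of 0 allows up to 1.37 CPM. Ankrd37 was higher in the upper follicle (9.49 and 18.2 CPM from 33 and 40 UMIs, ratio 0.94, interval 0.24 to 1.65), while in follicle stem cells and outer sheath its 52 and 13 UMIs gave a ratio of -0.84 (interval -1.88 to 0.02). Car9 had 18 and 9 UMIs in basal and 8 and 0 UMIs in proliferating cells, and at most 2 UMIs per library in the other 4 stages. Its basal interval held 0 (-1.95 to 0.61). In proliferating cells the count of 0, read as up to 3 UMIs, stands for up to 2.76 CPM against 5.91 CPM in wildtype. Against that wildtype value the ratio would be -1.10 or lower, but this leaves out the counting error of the 8 wildtype UMIs. In macrophages Car9 had 22 and 8 UMIs (ratio -1.19, interval -2.63 to -0.03).

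Counted by class, the genes did not move as a block. Directions are counted over all genes with a ratio. Genes past 0.5 are named only where both libraries together had at least 50 UMIs. Of all genes with that minimum, 51.1% were above 0 in basal, 48.0% in proliferating, 54.1% in spinous and 35.9% in granular cells. In basal cells 2 of 9 had a ratio above 0 and 7 below, with 1 interval above and 5 below 0. Egln3 and Bnip3 were lower by 0.5 or more there, where 4.19% of all genes with the minimum were lower and 3.49% higher by as much. Car9 had a basal ratio of -0.58 but fell short of this minimum. In proliferating cells 3 were above and 5 below 0 of the 8 with a ratio. Ndufa4l2 and Pdk1 were past 0.5 upward and Egln3 downward, beside 3.69% of all genes higher and 8.74% lower. In spinous cells 2 were above and 6 below 0, and Egln3 alone passed 0.5, beside 4.75% of all genes lower and 3.93% higher. In granular cells 3 were above and 5 below 0. Ndufa4l2 was past 0.5 upward and Egln3 and Slc2a1 downward, beside 3.54% of all genes higher and 9.34% lower, with a median of all genes of -0.09.

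In the upper follicle 2 of the 7 genes with a ratio were above and 5 below 0, where 47.8% of all genes were above 0. Ankrd37 was past 0.5 upward and Ndufa4l2 downward, beside 3.27% of all genes higher and 5.32% lower. Follicle stem cells and outer sheath had 4 above and 4 below 0, where 52.5% of all genes were above 0. Ndufa4l2 and Ankrd37 were past 0.5 downward there, beside 6.74% of all genes lower and 4.64% higher. These counts describe genes whose contrast was part of their choice, and nothing is read from them about hypoxia genes as a group.

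In fibroblasts 4 of the 8 genes with a ratio were above and 4 below 0, where 59.7% of all genes were above 0. Egln1, Vegfa and Pdk1 (7.73 and 10.02 CPM, ratio 0.37, interval 0.01 to 0.74) had intervals above 0, and Ndufa4l2, Slc2a1 (51.8 and 46.0 CPM, ratio -0.17) and Bnip3 (4.70 and 3.06 CPM, ratio -0.62) below. Only Bnip3 was past 0.5, beside 6.49% of all genes lower and 8.90% higher. In macrophages 2 genes were above and 7 below 0, where 38.2% of all genes were above 0. Among genes with at least 50 UMIs, Egln3 was past -0.5 there (-0.95, interval -1.74 to -0.23, from 52 and 23 UMIs). Beside it 17.0% of all genes were lower and 7.14% higher, with a median of all genes of -0.12. Car9, with fewer UMIs, had a ratio of -1.19 in macrophages. Slc2a1 had an interval below 0 as well (55.9 and 41.3 CPM, ratio -0.44, interval -0.72 to -0.15). Early genes of dissociation were higher in Eppk1-/- macrophages (10 of 13 above 0, median 0.51), and their part in these ratios was not tested. In dendritic cells 1 of 6 genes with a ratio was above and 5 below 0, where 39.5% of all genes were above 0. Among genes with at least 50 UMIs, Vegfa and Egln1 (69.7 and 38.1 CPM, ratio -0.86, interval -1.58 to -0.19) were past -0.5. Beside them 14.3% of all genes were lower and 9.17% higher. Egln3, with fewer UMIs, had a ratio of -1.37 in dendritic cells. Slc2a1 had a ratio below 0 in all 5 of these other types, from -0.45 in mast cells to -0.04 in T and NK cells, where the interval held 0. T and NK cells had Egln1 at 273 and 172 CPM (ratio -0.66, interval -1.22 to -0.13).

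Whether cells with an Egln3 UMI also had Ndufa4l2, Egln1, Vegfa or Slc2a1 was counted in basal and spinous cells, after thinning to 2000 UMIs. All but Vegfa in spinous cells had the higher share in cells with Egln3. Of wildtype basal cells with an Egln3 UMI, 31.5% (interval 27.8 to 35.5) had an Ndufa4l2 UMI, against 22.7% (interval 20.2 to 25.3) of those without. In Eppk1-/- basal cells the shares were 32.8% (interval 27.7 to 38.2) and 28.5% (interval 25.7 to 31.4), which overlap. Slc2a1 was found in 81.6% of wildtype basal cells with Egln3 and 60.1% without, and in 79.9% and 61.7% of Eppk1-/- basal cells. Egln1 followed the same order, with 44.0% and 25.5% in wildtype and 39.9% and 23.4% in Eppk1-/- basal cells. In spinous cells Ndufa4l2 was found in 35.5% of wildtype cells with Egln3 and 24.1% without, and in 43.8% and 28.4% of Eppk1-/- cells. Vegfa differed by less than its intervals in spinous cells (19.5% with and 21.3% without Egln3 in wildtype, 23.97% and 24.78% in Eppk1-/-). Most cells with an Egln3 UMI had no Ndufa4l2 UMI in either stage. Split by Ndufa4l2 instead, Slc2a1 was found in 73.8% of wildtype basal cells with Ndufa4l2 and 65.5% without. In Eppk1-/- basal cells these shares were 66.3% and 66.2%. In spinous cells they were 46.8% and 46.4% in wildtype and 50.4% and 48.1% in Eppk1-/-. Vegfa was found in 35.6% of wildtype basal cells with Ndufa4l2 and 33.6% without, and in 30.3% and 33.7% of Eppk1-/- basal cells. Cells of 1 library are not replicates, and a stage still spans a range of differentiation.

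**Figure D4:**
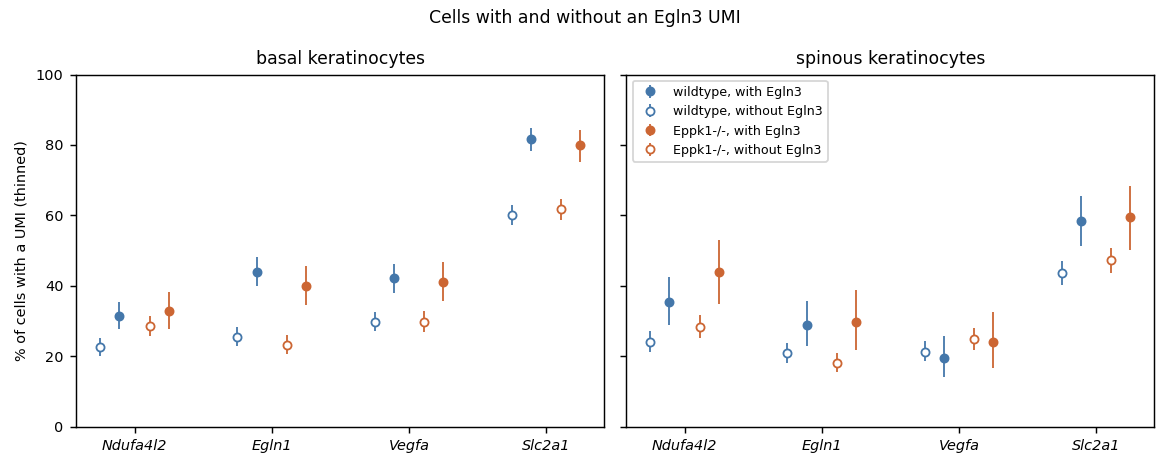
Share of basal (left) and spinous (right) keratinocytes with a UMI of Ndufa4l2, Egln1, Vegfa or Slc2a1, after thinning to 2000 UMIs, among cells with (filled) and without (open) an Egln3 UMI, in the wildtype (blue) and Eppk1-/- (orange) library. Bars are exact 95% Clopper-Pearson intervals, and Slc2a1 in wildtype basal cells is at 81.6% and 60.1%.

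Over the 6 stages and both libraries (12 points that share libraries and depth), the levels of Vegfa and Slc2a1 were most alike among the pairs of members, with a Pearson r of 0.96 of log2(CPM + 1). Egln3 and Ndufa4l2 had an r of 0.25 over the same points. With the other cell types added to the stages (22 points) their r was 0.59. Among all genes, those most like Egln3 over 24 points (12 classes in both libraries, of which all keratinocytes together overlap their stages) were Galnt3 (r = 0.96), Pacsin3, Btg3, Rhod and Actn4 (r = 0.92). Their keratinocyte ratios ranged from -0.16 (Pacsin3) to 0.12 (Actn4), so that none shared the ratio of Egln3. Those most like Ndufa4l2 were Sema3d (r = 0.95), Ptges, Wasl, Bmp3 and Igfbp3 (r = 0.90). Igfbp3, itself a gene of the hypoxia list, had a keratinocyte ratio of 0.28, and Bmp3 had -0.45. The Igfbp3 ratio differed in sign between stages. It was 0.11 in basal, 0.28 in proliferating and 0.29 in spinous cells, and -0.38 in granular cells. In the upper follicle Igfbp3 had 1066 and 351 CPM, from 3704 and 772 UMIs (interval of the ratio -1.71 to -1.49). The relation of these values to those of Ndufa4l2 was not tested. Correlations over so few classes mostly reflect which cell types express a gene.

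A list of 69 other hypoxia-linked genes in 7 roles gave the wider background. Of these 66 were measured, and Aldoa, Gapdh and Eno1 were not analysed here. In keratinocytes 58 had at least 50 UMIs, 20 above and 38 below 0 (34.5% above, against 44.3% of all genes). Their median ratio was -0.04 beside -0.03 for all genes. None was higher and 3 were lower by 0.5 or more, beside 2.42% of all genes higher and 5.49% lower, a share near the background. In fibroblasts 62 had the minimum, 22 above and 40 below 0 (35.5% above, against 59.7% of all genes). Their median was -0.13 beside 0.06 for all genes. There 2 were higher and 11 lower by 0.5 or more, beside 8.90% of all genes higher and 6.49% lower. Fibroblast clusters differed in share between the libraries, as the Igfbp2 cluster did with 21.6% and 14.4% of gated fibroblasts. The part of this mix in the fibroblast ratios of single list genes was not tested. By role, genes of glucose transport and glycolysis were 7 above and 8 below 0 in keratinocytes and 3 above and 11 below in fibroblasts. Genes of the mitochondrial switch and mitophagy were 2 above and 6 below in keratinocytes and 5 above and 3 below in fibroblasts. Vascular and secreted factors were 3 above and 5 below, and 5 above and 5 below. Matrix and collagen genes were 1 above and 4 below, and 1 above and 5 below, and genes of stress and chromatin 4 above and 7 below in both types. Genes of pH and ion transport were 2 above and 0 below in keratinocytes and 0 above and 3 below in fibroblasts. Basal cells had 14 of 52 list genes above 0 (26.9%, against 51.1% of all genes) and upper follicle cells 13 of 46 (28.3%, against 47.8%). In spinous cells and in follicle stem cells and outer sheath 23 of 48 (47.9%, against 54.1% of all genes) and 25 of 49 (51.0%, against 52.5%) were above 0. Granular cells had the larger share in the list, with 19 of 43 above 0 (44.2%, against 35.9% of all genes). Early genes of dissociation were 3 above and 10 below 0 in keratinocytes (median -0.12), 2 above and 11 below in basal cells (median -0.10) and 1 above and 12 below in granular cells (median -0.27). They were 7 above and 6 below in spinous cells (median 0.01) and 9 above and 4 below in the upper follicle (median 0.05), and their part in the values of the list and of Egln3 was not tested.

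Of the 9 oxygen sensing genes of the list with at least 50 UMIs, 8 were below 0 in keratinocytes, where 44.3% of all genes were above 0. Hif1a, the alpha subunit found in most cells, had 192 and 187 CPM (ratio -0.04, interval -0.09 to 0.02). Epas1, which encodes the second alpha subunit, was the exception, with 58.6 and 69.3 CPM (0.24, interval 0.15 to 0.34). Arnt, their common partner, had 34.0 and 29.3 CPM (-0.21, interval -0.35 to -0.08). Egln2 (-0.03), the asparagine hydroxylase gene Hif1an (-0.09) and Vhl (-0.36, interval -0.80 to 0.06) had intervals that held 0. The feedback inhibitor gene Cited2 had 320.1 and 305 CPM (-0.07, interval -0.11 to -0.03). Within stages Cited2 was higher in spinous (0.43, interval 0.30 to 0.55), granular (0.28, interval 0.18 to 0.38) and upper follicle cells (0.15, interval 0.03 to 0.28). Its intervals held 0 in proliferating (0.16) and basal cells (-0.06). The part of the stage mix in the keratinocyte ratios of this group was not tested. Bhlhe40, a HIF target and clock repressor, had 465 and 345 CPM (-0.43, interval -0.47 to -0.39), and its relative Bhlhe41 -0.29. Hif3a and Arnt2 had under 50 UMIs.

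In fibroblasts both HIF alpha subunit genes were higher in Eppk1-/-, Hif1a at 52.9 and 67.6 CPM (0.35, interval 0.22 to 0.49) and Epas1 at 27.4 and 34.2 CPM (0.32, interval 0.13 to 0.51). Arnt had a ratio of 0.17 and Vhl 0.16 (interval -0.09 to 0.41). Hif3a, from 43 and 30 UMIs, had -0.93. Egln2 had -0.15, Hif1an -0.11, Cited2 -0.25, Bhlhe40 -0.25 and Bhlhe41 -0.46. Arnt2 had under 50 UMIs. The part of the fibroblast cluster mix in these ratios was not tested.

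At the lower end of the list in keratinocytes was Lox, a collagen crosslinking enzyme (82 and 30 UMIs, 2.30 and 1.25 CPM, ratio -0.86). Lox stood at 624 and 352 CPM in fibroblasts, and the part of fibroblast RNA in its keratinocyte ratio was not tested. Pgf, a relative of Vegfa, had 43 and 20 UMIs (-0.51, interval -1.38 to 0.26). By stage it went opposite ways, with 0 and 19 UMIs in basal cells and 23 and 0 UMIs in spinous cells. Stc2 (-0.44), the glycolytic regulator Pfkfb3 (161 and 119 CPM, -0.43, interval -0.50 to -0.37) and Zfp395 (-0.43) followed. At the upper end were Angptl4, an inhibitor of lipoprotein lipase (86.7 and 117 CPM, 0.43, interval 0.36 to 0.51), the carbonic anhydrase gene Car12 (0.29), Igfbp3 (6063 and 7381 CPM, 0.28), Plod1 (0.25, interval -0.09 to 0.58) and Epas1.

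In fibroblasts Lox (624 and 352 CPM, -0.83) and Pgf (14.4 and 5.77 CPM, -1.32) were among the 6 lowest. With them stood Pdk4, a kinase of the same family as Pdk1 that is known for its response to fasting (58.6 and 24.3 CPM, -1.27, interval -1.44 to -1.10), Hmox1, the haem-degrading stress enzyme (1486 and 777 CPM, -0.94), and Hif3a. The 6 highest were Edn1, the vasoconstrictor endothelin (56.6 and 97.3 CPM, 0.78, interval 0.66 to 0.91), the glucose transporter gene Slc2a3 (0.62), Stc1 (0.49), Zfp395 (0.35), Hif1a and Epas1. Zfp395 was among the lowest in keratinocytes and among the highest in fibroblasts. For the fibroblast ratios given here, the part of the cluster mix was not tested.

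**Figure D5:**
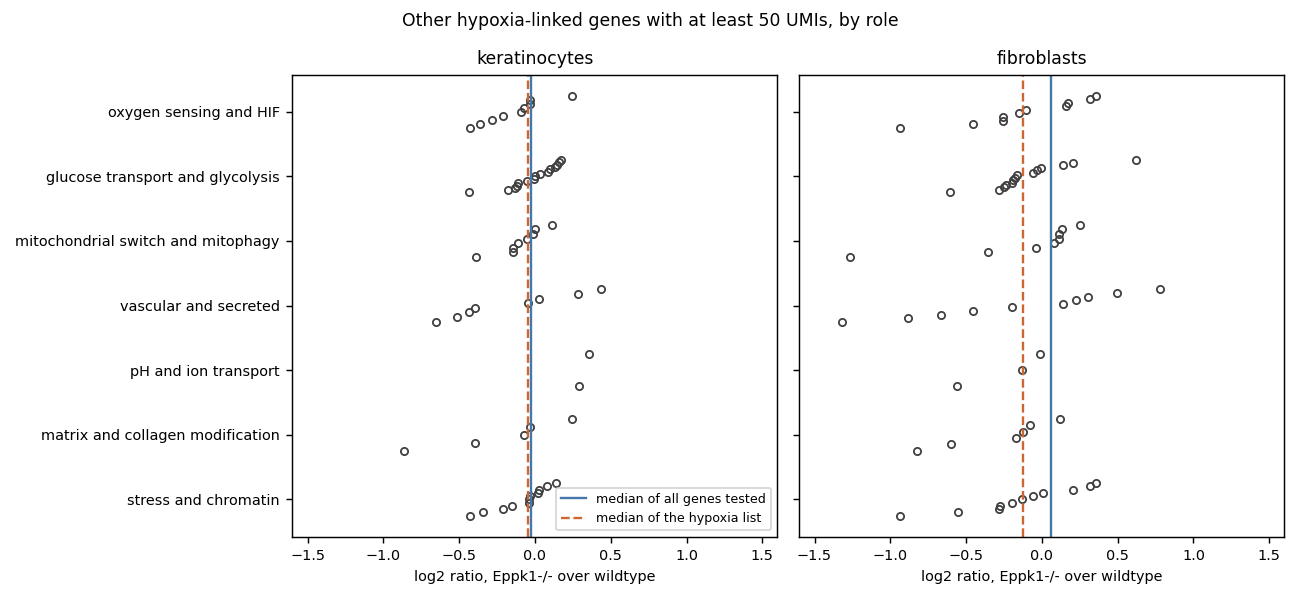
Log2 ratio of Eppk1-/- over wildtype for the listed hypoxia-linked genes with at least 50 UMIs, by role, in keratinocytes (58 genes, left) and fibroblasts (62 genes, right); each circle is a gene. The median of the list (dashed) is -0.04 beside -0.03 for all genes tested (solid) in keratinocytes, and -0.13 beside 0.06 in fibroblasts.

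Markers of other cell types were compared with these results. In spinous cells 5 of 7 dendritic cell markers were lower in Eppk1-/-, and their summed level was 641 and 270.4 CPM. In proliferating cells the sum was 1471 and 505 CPM. In basal cells it was 217 and 231 CPM, with 5 of 7 higher. Summed fibroblast markers in keratinocytes were 285 and 308 CPM, against 87415 CPM in wildtype fibroblasts, and none of the 9 fibroblast markers was at 0. In granular cells they summed to 156 and 469.8 CPM, with 8 of 9 higher in Eppk1-/-. In fibroblasts the 12 keratinocyte markers summed to 1243 and 1315 CPM, against 47319.5 CPM in wildtype keratinocytes. The part of keratinocyte RNA in the low fibroblast levels of Egln3 was not tested. The part of these markers in the ratios of Ndufa4l2 and Egln3 was not tested.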

How the data were processed

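Whole dorsal skin was dissociated, fixed and profiled with a probe-based assay (10x Genomics Fixed RNA Profiling). The files deposited by the authors hold raw UMI counts for each gene in each cell. The header of the counts names Cell Ranger 8.0.1, and the submitters' processing notes give the build mm10 (GRCm38). Kept were cells that had between 200 and 45000 UMIs, between 100 and 7500 detected genes, and no more than 10% of UMIs from mitochondrial genes, as in the study's methods, and mitochondrial genes were then removed. The resulting median depth was 4963 UMIs per wildtype and 5006 per Eppk1-/- cell.

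A cell was gated to the type with the highest share of its markers detected, at least 50% and 15 percentage points above the next type. This left 6.64% of wildtype and 6.20% of Eppk1-/- cells without a type, and 297 and 319 cells lay within 5 points of the margin. A keratinocyte stage needed a marker score 0.25 SD above the next, and 489 and 335 keratinocytes lay within 0.1 SD of this margin. The scoring was set after the data were seen. Doublets were not removed in the main values. The clusters came from Seurat 5.3.0 in R 4.3.3 (RPCA integration, resolution 0.5), without the 9 genes and the hypoxia list among the variable features. Clusters stayed unnamed where too few markers were detected or the lead over the next type was under 15 percentage points. They also stayed unnamed where their leading genes favoured another type or included several immunoglobulin genes.

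UMIs were summed over the cells of a class and divided by the class total, and 0.5 UMI was added to each sum before a ratio was taken. Intervals are exact at the 95% level (Poisson, conditional binomial for ratios, Clopper-Pearson for shares), and a count of 0 was read as up to 3 counts. Ratios are not given where neither library had more than 3 UMIs. The software was scipy 1.17.1, pandas 2.3.3 and numpy 2.4.6 under Python 3.11.15, with scanpy 1.11.5 for Scrublet scores and edgeR 4.0.16 for TMM factors only. The ratios and their intervals were checked on counts simulated with counting error only, and thinning was checked for the depth reached. Gating, stages and clusters were not simulated. No test between genotypes was run, since there is 1 library of each.

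The 9 genes, the hypoxia list, the early gene list and the marker lists were chosen with earlier results of these data known. All 9 genes were named in each class compared. Of the hypoxia list, all genes of oxygen sensing and the 6 highest and 6 lowest ratios in keratinocytes and fibroblasts were to be named; some of these are not reported here. The genes most like Egln3 and Ndufa4l2 were the 5 with the highest Pearson r each. Ero1a was read under its older symbol Ero1l. The alternatives were no cell filter, a stricter one (1000 UMIs and 500 genes), leaving out shared droplets, leaving out the top 5% of Scrublet scores, TMM scaling, a mean over cells, centring on all genes' median, thinning to 2000 UMIs, clusters in place of the gate, a stricter margin, stages weighted by wildtype shares, and no minimum or a minimum of 200 UMIs for lists. After the data were seen, a set without the Lce cluster and fibroblast clusters weighted by wildtype shares were added.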

Additional observations from a re-analysis of the deposited data

Results flagged for a closer look

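Ndufa4l2 and Vegfa stood out because their intervals lay on opposite sides of 0 in different classes of cells, with ratios past 0.5 in both directions. With 1 library per genotype these differences between classes were not tested. For Ndufa4l2 the log2 ratios of Eppk1-/- over wildtype were 0.75 in proliferating and 0.87 in granular keratinocytes, against -1.57 in the upper follicle and -1.05 in follicle stem cells and outer sheath. The follicle ratios rest on 20 and 16 UMIs in the Eppk1-/- library, at levels of 9.10 and 9.87 CPM that are near the 7.32 CPM of macrophages. With a stricter gate margin the upper follicle ratio was -0.68. In clusters the sign was the same, with -0.74 in the cluster led by Defb6, Cst6 and Tchh and -0.67 in the cluster led by Krt24, Ccn2 and Angptl7. Igfbp3, among the genes most like Ndufa4l2, was also lower in the upper follicle (1066 and 351 CPM). In granular cells Igfbp3 was lower (ratio -0.38) while Ndufa4l2 was higher. Whether the upper follicle values of both genes are related was not tested.

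Vegfa had a ratio of 0.95 in mast cells and -0.98 in dendritic cells. In the dendritic cluster led by Cd207 and Mfge8 it was -0.23 (interval -0.45 to -0.01). Mast cells formed a cluster of their own with 53 and 73 cells, in which the Vegfa ratio was 0.91 (interval 0.45 to 1.39). The early genes of dissociation had median ratios of -0.60 in mast cells and -0.54 in dendritic cells, and the part of tissue handling in either value was not tested.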

How the results depend on the processing

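Over 29 results and 15 alternatives, 322 values were computed; 295 stayed within counting error (counts of genes: near the main count), 27 moved by more, and 0 turned a ratio of 0.5 or more in size to the other sign. In keratinocytes the Egln3 ratio ranged from -0.67 to -0.55, the latter with clusters in place of the gate. The Ndufa4l2 ratio was 0.36 with stages weighted by wildtype shares, below the size of 0.5, against 0.52 in the main values. The median ratio of the 9 genes, -0.14 in the main values, was -0.22 as a mean over cells and -0.22 with stages weighted. The count of hypoxia list genes lower by 0.5 or more in keratinocytes, 3 in the main values, was 6 as a mean over cells, 5 after thinning, 1 with clusters, 6 without a minimum and 1 with a minimum of 200 UMIs. The Egln3 ratio in granular cells ranged from -1.07 (mean over cells) to -0.51, and it was -0.19 in proliferating and 0.17 in upper follicle cells after thinning. The Ndufa4l2 ratio in fibroblasts ranged from -0.57 (mean over cells) to -0.04 (clusters weighted), and the upper follicle ratio from -2.37 to -0.68. Smaller ratios changed sign for Egln3 in the upper follicle, as given, for Vegfa (-0.07) and Pdk1 (0.04) with stages weighted and for Ankrd37 without shared droplets (-0.01). The cause of these shifts was not tested. No paired analysis was possible because each genotype has 1 library. Depth limits Bnip3, Ankrd37, Car9 and the follicle values of Ndufa4l2, and the spread between mice is unknown for all genes.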

Other observations

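For cell types with fewer than 50 cells in a library, levels are given as values only. Sebocytes (35 and 60 cells), the lipid-producing cells of the gland, had the highest Pdk1 level of the types with over 30 cells, 122 CPM in wildtype (interval 95.5 to 155) and 99.3 CPM in Eppk1-/- (interval 81.6 to 120), beside 30.8 and 28.7 CPM in keratinocytes. They had no Ndufa4l2 UMI, which allows up to 5.25 and 2.73 CPM, and Egln3 at 10.5 and 3.65 CPM from 6 and 4 UMIs. Endothelial cells (22 and 17 cells) had Egln3 at 172 and 99.9 CPM from 18 and 8 UMIs. Skeletal muscle fibres (24 and 5 cells) had Egln1 at 502 and 519 CPM, from 55 and 22 UMIs, and no Ndufa4l2 UMI.

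Mural cells, the contractile cells around vessels, numbered 2 and 6 and had 2 and 9 Ndufa4l2 UMIs, or 469 and 385 CPM, with a floor of 703 and 128 CPM for a count of 0. No cell was gated as a Schwann cell in either library.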
